A study of Homo sapiens with 6 samples.

Results

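The genes described here are the mitochondrially encoded subunits of respiratory complex I, taken as every gene of the deposited table whose name begins with MT-ND. There were 4 of them among 1877 listed genes, namely MT-ND2, MT-ND4, MT-ND5 and MT-ND6. The mitochondrial genome carries 7 MT-ND genes in GENCODE release 29, and the other 3 (MT-ND1, MT-ND3, MT-ND4L) were not analysed here. The samples were 3 libraries of LP-1 cells in which a short hairpin RNA had lowered RNF5 (KD) and 3 libraries of LP-1 cells labelled Ctrl, the non-target control. LP-1 is an established human multiple myeloma line. All cells grew in RPMI-1640 with 15% serum. RNF5 encodes a ubiquitin ligase of the endoplasmic reticulum membrane. The title of the study names it beside DNAJA1, a co-chaperone, in connection with mitochondria and the drug selinexor. The labels give neither the number of hairpins nor a clone, a time of harvest or separate cultures, so p-values here measure the spread between libraries, which may be technical.

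Complex I, the NADH:ubiquinone oxidoreductase, is the entry point of electrons from NADH into the respiratory chain and pumps protons across the inner mitochondrial membrane. Most of its subunits come from nuclear genes, and the MT-ND genes supply core subunits of the membrane arm that pumps the protons. Mitochondrial DNA is transcribed from promoters on both strands into long RNAs that are cut, mostly at transfer RNAs, into single messages. MT-ND6 is the only messenger RNA made from the light-strand promoter, and the other MT-ND messages come from the heavy-strand promoter together with the ribosomal RNAs. Mitochondrial DNA differs in base content between its strands, so the messages of the 2 strands look unlike each other.

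The first 60 bases of each message, from the GENCODE release 29 transcripts on GRCh38, are shown because this asymmetry is visible in them. Capitals mark G.
MT-ND2: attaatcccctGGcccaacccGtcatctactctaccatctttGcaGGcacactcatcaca
MT-ND4: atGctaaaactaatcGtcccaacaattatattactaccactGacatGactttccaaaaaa
MT-ND5: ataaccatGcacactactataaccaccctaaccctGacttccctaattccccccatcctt
MT-ND6: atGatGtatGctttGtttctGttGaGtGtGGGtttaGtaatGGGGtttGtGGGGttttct
Over its whole length, the MT-ND6 message was 35.6% G and 7.05% C. The heavy-strand messages held 9.50% G and 33.5% C in MT-ND2, 9.94% G and 34.3% C in MT-ND4, and 10.6% G and 34.3% C in MT-ND5. Their lengths were 525 bases for MT-ND6, 1042 for MT-ND2, 1378 for MT-ND4 and 1812 for MT-ND5.

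MT-ND5 and MT-ND6 are neighbours that point at each other, with 0 bases between their annotated ends. Their last 30 bases are shown because reads at this border are the ones an unstranded count cannot assign. Capitals mark the last 3 bases.
MT-ND5: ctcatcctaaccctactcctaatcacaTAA
MT-ND6: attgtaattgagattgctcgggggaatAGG
The MT-ND5 message is known to extend past its stop codon into sequence antisense to MT-ND6. The labels do not state whether reads were counted by strand, so reads of the MT-ND5 extension and of MT-ND6 may not be separated in the values below. An unstranded count cannot assign reads wherever the extension and MT-ND6 overlap, not only at the border shown. MT-ND4 begins within the end of MT-ND4L, with which it shares 1 message and 7 annotated bases.

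All 4 genes were higher in every KD library than in any Ctrl library. The values that follow are the authors' normalized abundances, on a scale that no header or label names, so levels are compared within a gene and not between genes. The fold changes are log2 differences from limma fitted on log2(value + 1) over the whole table, with Benjamini-Hochberg adjustment over the 1290 genes fitted. Among those 1290 genes, 55.7% were called higher in KD and 42.0% lower at an adjusted p under 0.05, and 54.9% had 3 KD values above all 3 Ctrl values. These shares depend on the scaling and filter. The calls were 718 higher and 542 lower as fitted, 763 higher and 361 lower of 1319 genes when values were divided by the sum of listed genes outside the mitochondrial genome, and 905 higher and 882 lower of 1877 with no filter. The authors had already selected the listed genes for a difference between these libraries, so 4 of 4 members called higher is a description and not independent evidence. Bulk values do not tell more RNA per cell from more cells that carry the RNA.

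MT-ND6, the light-strand subunit and part of the proton-pumping membrane arm, had 3775, 4075 and 4117 units in KD libraries 1, 2 and 3, against 1071, 1014 and 1041 units in Ctrl libraries 1, 2 and 3. The lowest KD value was 3.52 times the highest Ctrl value, the widest gap of the 4 genes. Its mean was 3989 ± 186 in KD and 1042 ± 28.8 in Ctrl (SD, n = 3 each), a log2 fold change of 1.93 (SE 0.12, limma adjusted p = 5.80e-07). MT-ND6 was also the steadiest member, with a coefficient of variation of 4.67% in KD and 2.76% in Ctrl, where the heavy-strand members ranged from 7.85% to 12.2% in KD and from 10.5% to 12.3% in Ctrl.

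MT-ND5, the largest of the core membrane subunits and its most distal pump module, had 5794, 7401 and 6833 units in KD libraries 1, 2 and 3, against 1809, 1625 and 1413 units in Ctrl libraries 1, 2 and 3. The groups did not overlap, and the lowest KD value was 3.20 times the highest Ctrl value. Its log2 fold change was the highest of the 4 genes, at 2.05 (SE 0.14, limma adjusted p = 1.16e-06), with means of 6676 ± 815 in KD and 1615 ± 198 in Ctrl (SD, n = 3 each).

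MT-ND2, another antiporter-like pump subunit, had 3072, 3577 and 3459 units in KD libraries 1, 2 and 3, against 1042, 942 and 1162 units in Ctrl libraries 1, 2 and 3. Its groups were apart by a factor of 2.64 between the lowest KD and the highest Ctrl value. The means of 3369 ± 264 in KD and 1049 ± 110 in Ctrl (SD, n = 3 each) gave a log2 fold change of 1.69 (SE 0.14, limma adjusted p = 2.31e-06).

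MT-ND4, the third antiporter-like subunit, had 5611, 6810 and 6460 units in KD libraries 1, 2 and 3, against 2568, 2364 and 2064 units in Ctrl libraries 1, 2 and 3. Its separation was the narrowest of the 4, with a factor of 2.18 between the lowest KD and the highest Ctrl value. Its means were 6294 ± 616 in KD and 2332 ± 254 in Ctrl (SD, n = 3 each), a log2 fold change of 1.43 (SE 0.14, limma adjusted p = 5.32e-06). For each of the 4 genes the exact 2-sided permutation test over the 6 libraries gave p = 0.1, the smallest value that 3 against 3 allows.

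**Figure D1:**
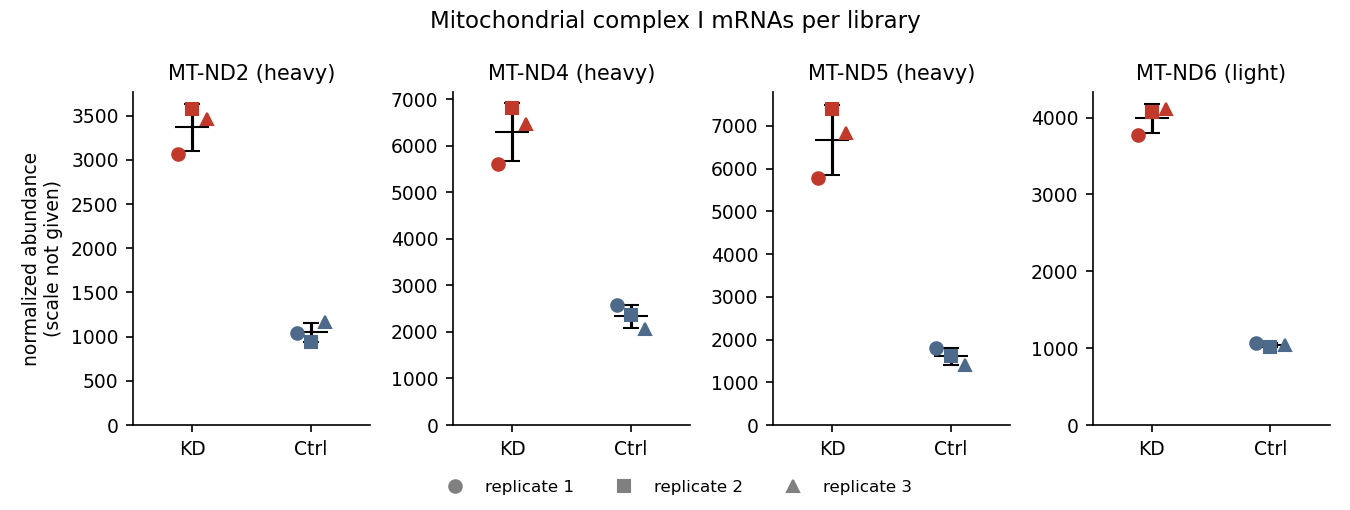
Normalized abundance (vertical axes, starting at 0, scale not given) of the 4 complex I messages in KD and Ctrl libraries, with 1 symbol per replicate number, the mean as a dash and the SD as a bar (n = 3). KD lies above Ctrl throughout, from 3775 to 4117 against 1014 to 1071 for MT-ND6 and from 5611 to 6810 against 2064 to 2568 for MT-ND4.

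On the log2(value + 1) scale, the log2 fold changes of the members stood high beside the other genes of the table. MT-ND5 was above 98.1% of the 1290 genes fitted, MT-ND6 above 97.4%, MT-ND2 above 94.8% and MT-ND4 above 88.8%. This scale understates the change of low genes, and the members have high values, so the ranks depend on it. Ranks on another scale were not computed. The genes below include the 42.0% called lower, so these shares in part restate that the members rose. The ranks ran from 25 for MT-ND5 to 145 for MT-ND4, where 718 genes were called higher. Every listed gene had a deposited absolute log2 fold change of at least 1.0002, where that of MT-ND4 was 1.26. The median of the 4 was 1.81, against 0.73 for all genes fitted. The latter pools genes selected for rising and for falling, so it is not the change of a typical gene. The median of all genes moved with the settings. It was 1.14 with a pseudocount of 0.1 and -0.10 with no filter. With KD library 1, 2 or 3 left out it was 0.16 to 0.27, where the filter kept 1129 or 1130 genes in place of 1290. The 6 other listed messages of mitochondrial DNA had a median of 1.71 and ranged from 1.17 for MT-ATP8, a subunit of ATP synthase, to 1.997 for MT-CO1, a catalytic subunit of cytochrome c oxidase. The median messages among these 6 were MT-ATP6, also of ATP synthase, and MT-CYB of complex III, at 1.67 and 1.75. The complex I members therefore covered nearly the same range as the messages of the other complexes, and MT-ND5 was at the top of all 10.

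**Figure D2:**
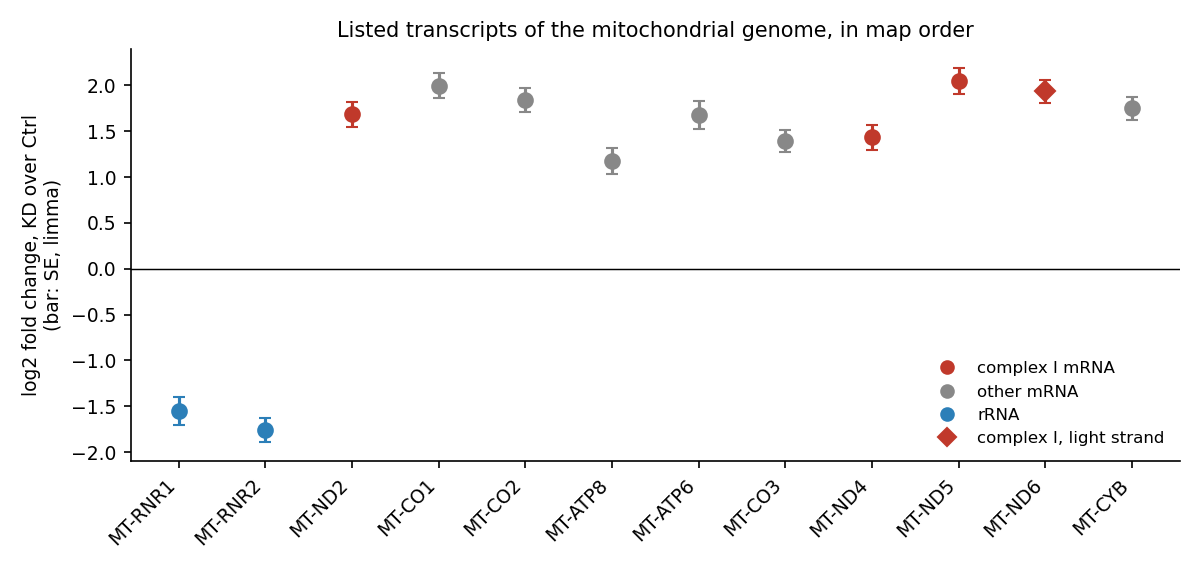
Log2 fold change of KD over Ctrl (vertical axis, limma, bars are SE) for the 12 fitted transcripts of the mitochondrial genome, placed in map order. Every message lies above 0, from 1.17 for MT-ATP8 to 2.05 for MT-ND5, both ribosomal RNAs lie below 0, and the light-strand MT-ND6 at 1.93 lies within the range of the heavy-strand messages.

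The strand comparison set MT-ND6 against each heavy-strand member within a library, so that scaling between libraries cancels. The 4 members give 6 pairs, and the exact 2-sided permutation p-values were adjusted over these 6. MT-ND6 over MT-ND4 was 0.673, 0.598 and 0.637 in KD libraries 1, 2 and 3, against 0.417, 0.429 and 0.505 in Ctrl libraries 1, 2 and 3. The groups did not overlap, and the log2 ratio was higher in KD by 0.50 (exact p = 0.1, adjusted p = 0.15). MT-ND6 over MT-ND2 was 1.23, 1.14 and 1.19 in KD libraries 1, 2 and 3, against 1.03, 1.08 and 0.896 in Ctrl libraries 1, 2 and 3. These groups did not overlap either, and the log2 ratio was higher in KD by 0.25 (exact p = 0.1, adjusted p = 0.15).

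MT-ND6 over MT-ND5 behaved differently from those ratios. It was 0.652, 0.551 and 0.602 in KD libraries 1, 2 and 3, against 0.592, 0.624 and 0.737 in Ctrl libraries 1, 2 and 3, and the groups overlapped. The log2 difference was -0.11 (exact permutation p = 0.5, adjusted p = 0.5), with a 95% interval of -0.39 to 0.17 from limma. Without Ctrl library 3, which had the highest ratio of all 6, the difference was -0.02. No difference between these neighbours was detected at this spread.

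The largest of the 6 differences was between 2 genes of the same strand. MT-ND5 over MT-ND4 was 1.03, 1.09 and 1.06 in KD libraries 1, 2 and 3, against 0.704, 0.687 and 0.684 in Ctrl libraries 1, 2 and 3. The log2 ratio was 0.08 ± 0.04 in KD and -0.53 ± 0.02 in Ctrl (SD, n = 3 each), a difference of 0.61 (exact permutation p = 0.1, adjusted p = 0.15). This difference was many times the SD of either group, and no library stood apart. MT-ND5 over MT-ND2 was 1.89, 2.07 and 1.98 in KD libraries 1, 2 and 3, against 1.74, 1.72 and 1.22 in Ctrl libraries 1, 2 and 3. Its log2 difference of 0.36 rested in part on Ctrl library 3 and was 0.19 without it. MT-ND2 over MT-ND4 was 0.547, 0.525 and 0.535 in KD libraries 1, 2 and 3, against 0.406, 0.399 and 0.563 in Ctrl libraries 1, 2 and 3. The groups overlapped through Ctrl library 3 alone, with a log2 difference of 0.25 (exact permutation p = 0.4, adjusted p = 0.48) and of 0.41 without that library.

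An exact test on 6 libraries cannot pass 0.05, so the same differences were also fitted with limma together with all 66 differences between mitochondrial transcripts. There, MT-ND6 over MT-ND4 (difference 0.50, SE 0.10, limma adjusted p = 0.00536) and MT-ND5 over MT-ND4 (0.61, SE 0.07, limma adjusted p = 0.000262) passed. MT-ND6 over MT-ND2 (limma adjusted p = 0.0589), MT-ND5 over MT-ND2 (limma adjusted p = 0.0758), MT-ND2 over MT-ND4 (limma adjusted p = 0.164) and MT-ND6 over MT-ND5 (limma adjusted p = 0.433) did not. In the order MT-ND5, MT-ND6, MT-ND2, MT-ND4, no 2 neighbours thus differed past the threshold, while MT-ND4 differed from both MT-ND5 and MT-ND6. Those 66 differences share transcripts and are not independent. They include ratios of messages to the ribosomal RNAs, which fell. Large differences of that kind, 3.20 to 3.81 for the members over MT-RNR2, make the adjustment easier to pass for the other pairs. Without Ctrl library 3, a check chosen after its values were seen, all 6 pairs of members but MT-ND6 over MT-ND5 passed (limma adjusted p from 0.000133 to 0.0356).

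**Figure D3:**
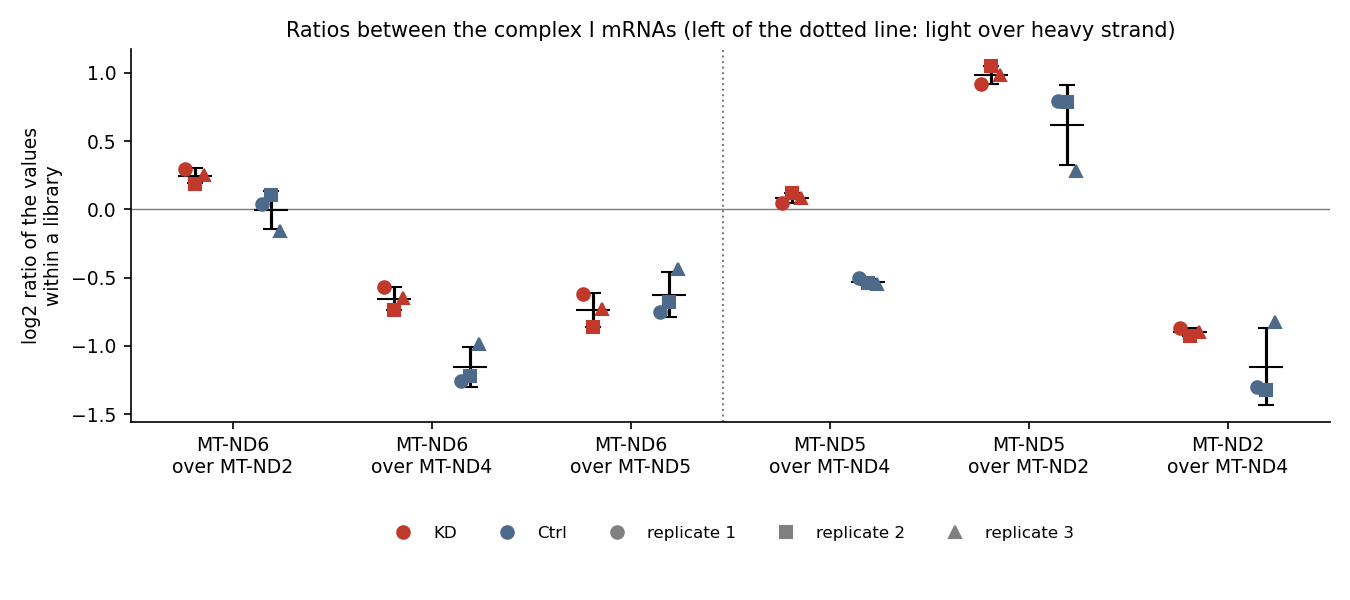
Log2 ratio within a library (vertical axis) for the 6 pairs of complex I messages, with KD and Ctrl side by side, 1 symbol per replicate number, the mean as a dash and the SD as a bar (n = 3). MT-ND5 over MT-ND4 separates most, at 0.05 to 0.12 in KD against -0.55 to -0.51 in Ctrl, while the groups of MT-ND6 over MT-ND5 overlap.

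Against the 3 heavy-strand members together, MT-ND6 had a log2 ratio of -0.30, -0.47 and -0.38 in KD libraries 1, 2 and 3, against -0.66, -0.60 and -0.53 in Ctrl libraries 1, 2 and 3. The groups did not overlap, and the mean was higher in KD by 0.21 (-0.38 ± 0.09 in KD, -0.60 ± 0.07 in Ctrl, SD, n = 3 each, exact permutation p = 0.1). Against all 9 listed heavy-strand messages the difference was 0.27 (exact permutation p = 0.1). Of the 13 annotated messages of mitochondrial DNA 10 were listed, all selected by the authors for change, so both differences hold for selected messages only. The heavy-strand members themselves spread more than these differences, from 1.43 for MT-ND4 to 2.05 for MT-ND5, and the value of MT-ND6 at 1.93 lay between them. In the authors' deposited table the log2 fold changes were 1.85 for MT-ND6, 1.87 for MT-ND5, 1.502 for MT-ND2 and 1.26 for MT-ND4. The order of MT-ND5 first, then MT-ND6, MT-ND2 and MT-ND4 was thus the same in both sources. Both rest on the same 6 libraries, so the shared order is not independent evidence. In the deposited values MT-ND5 was above MT-ND6 by only 0.02. The authors' deposited log2 value was below the log2 ratio of the library means by 0.09 for MT-ND6 and by 0.17 to 0.18 for the heavy-strand members, where the median over 431 genes was 0.17.

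The libraries of a group did not vary together in all members. KD library 1 was the lowest KD library for each of the 4 genes, and for 9 of the 10 listed mitochondrial messages. In the Ctrl group, library 3 was the lowest for MT-ND4 and MT-ND5, by 0.17 and 0.19 below the group mean on the log2 scale, and the highest for MT-ND2, by 0.15 above it. MT-ND6 in that library was at 1041 units, beside a group mean of 1042. Counting all 10 messages, Ctrl library 3 was the lowest Ctrl library in 5 and the highest in 4. The part of this library's profile in the ratios above was not tested beyond the values given without it.

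**Figure D4:**
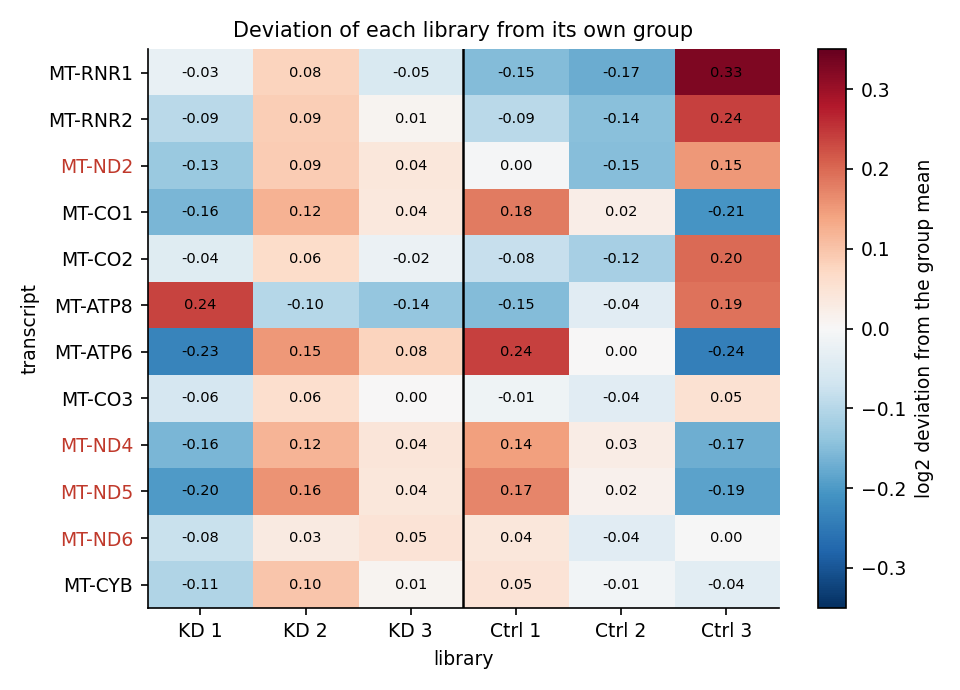
Log2 deviation of each library (columns) from the mean of its own group, for the 12 fitted mitochondrial transcripts in map order (rows, complex I messages in red letters). Ctrl library 3 is low for MT-ND4 and MT-ND5 at -0.17 and -0.19 and high for MT-ND2 at 0.15, and MT-ND6 varies least among the 4 members in the Ctrl group.

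The ribosomal RNAs went the other way. MT-RNR2, the RNA of the large mitochondrial ribosomal subunit, is made from the same promoter as the heavy-strand members, and it fell by 1.76 on the log2 scale (limma adjusted p = 1.67e-06). MT-ND2 over MT-RNR2 was 0.708 to 0.742 in KD libraries and 0.0626 to 0.0707 in Ctrl libraries. MT-ND6 over MT-RNR2 was 0.830 to 0.883 in KD libraries and 0.0562 to 0.0727 in Ctrl libraries. The log2 differences of these ratios ran from 3.20 for MT-ND4 to 3.81 for MT-ND5 (exact permutation p = 0.1 for each of the 4). The labels do not say how ribosomal RNA was removed or messages selected, and the part of that step in the ratios was not tested.

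Nuclear genes of complex I were nearly absent from the listed genes. None of 37 nuclear subunit genes was listed, so they have no values here and nothing can be said of their change. Of 19 genes for the assembly of the complex, NDUFAF2 and NDUFAF4 were listed, and both fell, where 42.0% of the genes fitted were called lower, a share that moves with the scaling as given above. NDUFAF2, an assembly factor of the late steps, had 24.9, 19.0 and 17.3 units in KD libraries 1, 2 and 3, against 38.4, 44.6 and 57.9 units in Ctrl libraries 1, 2 and 3. Its log2 fold change was -1.16 (SE 0.21, limma adjusted p = 0.000292), with no overlap between the groups. NDUFAF4, an early-acting assembly factor, had 14.0, 14.7 and 9.65 units in KD libraries 1, 2 and 3, against 26.4, 22.8 and 33.8 units in Ctrl libraries 1, 2 and 3, a log2 fold change of -1.06 (SE 0.22, limma adjusted p = 0.000650). None of 39 gene symbols of mitochondrial transcription and RNA processing, with TBRG4 counted under both of its names, was listed.

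Copies of the MT-ND genes lie in the nuclear genome as pseudogenes, and 4 of them were listed, 1 for each member. All 4 were called higher, where 55.7% of the genes fitted were, in a table selected for change. MTND5P11 and MTND4P12 reached 1 unit in KD libraries only, so they passed the filter through that group alone. Their calls were thus largely set by the filter and are a description. MTND2P28 had 94.0, 120 and 103 units in KD libraries 1, 2 and 3, against 34.7, 28.0 and 55.5 units in Ctrl libraries 1, 2 and 3, and it was highest in Ctrl library 3, as MT-ND2 was. MTND6P3 had 12.5, 14.9 and 11.3 units in KD libraries 1, 2 and 3, against 3.64, 2.16 and 2.95 units in Ctrl libraries 1, 2 and 3. Their log2 fold changes were 1.45 (limma adjusted p = 0.000152) and 1.84 (limma adjusted p = 2.00e-05), beside 1.69 for MT-ND2 and 1.93 for MT-ND6. The other copies lay farther from their parents on this scale, which understates low genes. MTND5P11 had a log2 fold change of 0.85 (limma adjusted p = 0.000470), beside 2.05 for MT-ND5, with 1.72, 2.33 and 1.77 units in KD libraries 1, 2 and 3, against 0.97, 0.44 and 0.51 units in Ctrl libraries 1, 2 and 3. MTND4P12 had 0.82 (limma adjusted p = 0.000352), beside 1.43 for MT-ND4, with 1.04, 1.65 and 1.72 units in KD libraries 1, 2 and 3, against 0.24, 0.39 and 0.56 units in Ctrl libraries 1, 2 and 3. In the Ctrl group it was highest in library 3, where MT-ND4 was lowest. As ratios of the KD mean to the Ctrl mean, MTND4P12 was at 3.71 beside 2.70 for MT-ND4, above its parent. MTND6P3 was also above its parent, at 4.42 beside 3.83 for MT-ND6. MTND2P28 and MTND5P11 stayed below theirs, at 2.69 beside 3.21 and 3.03 beside 4.13. Of the 50-base windows of MTND2P28, 43.5% occur letter for letter in MT-ND2, against 1.01% for MTND6P3 in MT-ND6, 4.76% for MTND5P11 in MT-ND5 and 3.46% for MTND4P12 in MT-ND4. Reads from identical windows cannot be told apart, and the labels do not say how such reads were assigned.

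Outside the mitochondrial genome, the gene with the profile most like the mean of the 4 members over the 6 libraries was MTCO1P12, a nuclear copy of MT-CO1. Likeness was the root mean square distance between log2(value + 1) profiles centred on their own mean, which was 0.07 for MTCO1P12 and had a median of 0.53 over the 586 genes compared. The next were the pseudogene TPTEP1 at 0.09, the non-coding RNAs LINC02348 at 0.10 and WAKMAR2 at 0.10, and the zinc finger gene ZNF248 at 0.12. Among the members, MT-ND6 was 0.09, MT-ND2 0.11, MT-ND5 0.16 and MT-ND4 0.18 from the mean profile, so MT-ND5 and MT-ND4 lay farther from it than the 5 other genes named. Those 5 were picked as the smallest distances of the 586, so that order follows in part from the choice. Their Ctrl means were 2.27 to 3.76 units, where the added 1 lowers the change, so their distances depend on it. They met the required mean of at least 5 units over the 6 libraries through their KD values alone. The distance is mostly the difference between the groups and is a description.

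RNF5, the targeted gene, was 81.4 to 95.4 units in KD libraries and 1248 to 1649 units in Ctrl libraries, with each KD library below every Ctrl library, as labelled. The values of all listed genes summed to 116843 to 122079 in KD libraries and 90825 to 93975 in Ctrl libraries. The 4 members together made up 15.6% to 17.9% of that sum in KD libraries and 6.04% to 7.15% in Ctrl libraries. Listed genes outside the mitochondrial genome summed to 32487 to 33817 in KD libraries and 44027 to 48136 in Ctrl libraries. No depth can be read from these sums of selected genes. Of 9 plasma cell markers only SDC1 was listed, at 34.1 to 36.2 units in KD libraries and 9.20 to 14.5 units in Ctrl libraries. Of 19 markers of T and NK cells, myeloid cells, fibroblasts and erythroid cells only COL1A1 was listed, at 0.07 to 0.44 units in KD libraries and 0.47 to 0.72 units in Ctrl libraries. The identity of the line could not be checked further from the listed genes.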

How the data were processed

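RNA of 6 LP-1 libraries was sequenced by the authors. The submitters' processing notes name Bowtie 0.12.2 and the human build hg19, with no step. Per the file headers, the deposited table gave a normalized signal per gene and library, group means, a fold ratio of KD over Ctrl, its log2 and p-values. The genes the authors listed all passed an absolute log2 value of 1 and an adjusted p of 0.05. The deposited values were not counts, and depth is unknown. From them, limma 3.58.1 in R 4.3.3 was run on log2(value + 1) with a mean-variance trend and group as the only term. It took 1290 genes that reached 1 in at least 3 libraries and left out 587; its scale understates the change of low genes. The fit was tested on simulated data in which 200 genes were changed. Of the 1290 real genes 1260 were called, so that test does not cover a table selected for change. Ratios between members used exact permutation tests in Python 3.11.15. Sequences, strands and lengths came from GENCODE release 29 on GRCh38 by gene identifier, and no coordinates are given because that build differs from hg19. The members, gene lists and tests were chosen with earlier results of these data known. The genes named were the MT-ND genes, other mitochondrial transcripts at set ranks, the 5 nearest in profile with a mean of at least 5, the listed members of 3 gene lists, nuclear copies and RNF5. MTND5P11, MTND4P12, MT-TA and further mitochondrial transcripts were named after their values were seen. Alternatives covered the pseudocount, filter, trend, scaling, replicate block and each library left out.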

Additional observations from a re-analysis of the deposited data

How the results depend on the processing

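Each of the 4 members kept its direction and an adjusted p under 0.05 in limma under all 12 alternatives tried (pseudocount 0.1, no filter, no trend, 2 other scalings, the replicate block, and each library left out), with 0.000123 as the largest adjusted p. Dividing by the sum of listed genes outside the mitochondrial genome raised the log2 fold changes to between 1.90 and 2.52, and dividing KD by the median offset from the authors' values lowered them to between 1.26 and 1.87; ratios between members do not depend on either. The count of changed genes was 1260 of 1290 fitted. With 1 library left out it ranged from 1076 to 1161, where the unchanged filter kept only 1129 to 1188 genes. It was 1787 with no filter, 1124 under the scaling outside the mitochondrial genome and 1272 with the replicate block (721 higher, 551 lower). Without 1 library, the log2 differences ranged from 0.17 to 0.30 for MT-ND6 over MT-ND2, 0.45 to 0.59 for MT-ND6 over MT-ND4, -0.18 to -0.02 for MT-ND6 over MT-ND5, 0.59 to 0.63 for MT-ND5 over MT-ND4, 0.19 to 0.45 for MT-ND5 over MT-ND2, 0.16 to 0.41 for MT-ND2 over MT-ND4 and 0.17 to 0.26 for MT-ND6 over the heavy-strand members together. Same-numbered libraries did not deviate together (correlations -0.36, -0.10 and -0.17 over 431 genes). Each group was centred on its own mean, which ties these correlations to each other, so they cannot settle whether the numbers pair the libraries. The labels do not state a pairing. With the replicate block, every difference was equal to that without it, and MT-ND6 over MT-ND5 kept its difference of -0.11 (exact sign-flip p from 3 pairs cannot go below 0.25). In limma on the differences, MT-ND6 over MT-ND4 at 0.50 and MT-ND5 over MT-ND4 at 0.61 passed, which the exact test cannot do; without Ctrl library 3, 0.17 for MT-ND6 over MT-ND2, 0.59 for MT-ND6 over MT-ND4, 0.61 for MT-ND5 over MT-ND4, 0.19 for MT-ND5 over MT-ND2 and 0.41 for MT-ND2 over MT-ND4 passed as well. The unknown depth and scale limit what can be said of precision.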

Other observations

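The listed transfer RNA gene MT-TA, for alanine and also made from the light strand, was listed at 0 in all 6 libraries, while the authors' deposited table gave it a log2 fold change of 1.73. It was therefore not fitted, and MT-ND6 was the only light-strand transcript with values. Among the other mitochondrial messages, Ctrl library 3 was the highest Ctrl library for MT-CO2, MT-ATP8 and MT-CO3 and the lowest for MT-CO1, MT-ATP6 and MT-CYB. MT-RNR1 and MT-RNR2 were also highest in that library, by 0.33 and 0.24 above their group mean on the log2 scale.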
